A study of Mus musculus with 8 samples.

Results

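The 10 genes described here, Vwf, Selp, Itga2b, Itgb3, Pf4, Ppbp, Gp1bb, Gp5, Gp9 and Treml1, encode adhesion molecules, surface receptors and secreted proteins of megakaryocytes and platelets. They were taken as a list from 32285 genes in the count tables, and all 10 were followed in every library. This list, the other gene lists and the cell gates below were chosen with earlier results of these data known. Their counts beside shares of all genes are therefore a description. Marrow cells negative for lineage markers and positive for c-Kit, a mixture of haematopoietic stem and progenitor cells, had been profiled by single-cell RNA sequencing in 8 wild-type mice with 1 library per mouse. A male and a female were profiled at each of 4 ages, which were 14 weeks (young), 50 weeks (middle-aged), 78 weeks for the male and 79 weeks for the female (old) and 95 weeks (very old). The old and very old mice together are called older here (n = 4) and were compared with the young mice (n = 2). All mice carry the same wild-type label, and the labels name neither a treatment nor a strain. Library names of the very old mice belong to a different series from those of the other 6 mice, so this difference and the age of 95 weeks cannot be told apart.

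Each library held between 83062003 and 150135029 UMIs (unique molecular identifiers, which count captured RNA molecules), and 59136 cells remained once those with under 200 detected genes were removed. Levels are given as CPM, the UMIs of a gene scaled to a total of 1000000 UMIs over the cells of 1 class in 1 mouse. Pairs of libraries shared between 6 and 27 cell barcodes. The results rest on a pair of cell classes, both defined by UMIs of genes outside the list. Hlf/Procr cells held at least 1 UMI of Hlf or Procr, genes of haematopoietic stem cells, and numbered 15285 (1634 to 2187 per mouse). They made up 18.8% to 32.9% of the kept cells of a mouse, and how many are stem cells was not tested. In every mouse most of those kept after the thinning below also passed a limit on other genes at full depth. This was 5 or more UMIs of any of Mpo, Elane and Prtn3 (granulocyte genes) or 2 or more of Car1, an erythroid gene. Cells that passed it are called cells holding granulocyte or Car1 UMIs below. Those that did not pass numbered 337 of 1438 in the young male and 400 of 1521 in the young female. In the middle-aged mice they numbered 279 of 1892 and 215 of 1548, and in older mice from 379 of 1811 to 563 of 1715. Megakaryocyte progenitors held UMIs of at least 4 of 12 other megakaryocyte genes (the gate genes, such as Gp1ba, Cavin2, F2rl2 and Clec1b) and none of Hlf or Procr, and numbered 1571 (155 to 251 per mouse). Among the gate genes Gp6 and Tubb1, genes of maturing megakaryocytes, had too few UMIs to pass the filter on low counts in either class or over all cells, so that 10 gate genes could be tested. Cells one gate gene short of this limit numbered 80 to 149 per mouse, and cells exactly at it 45 to 96.

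Megakaryocytes arise from stem cells through progenitors that take on the platelet programme step by step, and they release platelets from the marrow. A share of stem cells carries RNA of platelet genes before any commitment, which is known as platelet priming, and Vwf is its best known marker. Among the products of these genes, von Willebrand factor (Vwf) bridges platelets to a damaged vessel wall and binds the glycoprotein Ib-IX-V complex, to which Gp1bb, Gp5 and Gp9 contribute subunits. Itga2b (CD41) and Itgb3 (CD61) form the integrin that binds fibrinogen. Selp (P-selectin) is stored in alpha granules and binds leukocytes once it reaches the surface. Pf4 and Ppbp are chemokines of the same granules, and Treml1 is a receptor of the granule membrane that aids platelet aggregation.

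The genes lie on 6 chromosomes (GENCODE vM21 coordinates, GRCm38). Ppbp (chr5:90768518-90770063) and Pf4 (chr5:90772435-90773383) are neighbours on the same strand with 2371 bases between them. Itga2b (chr11:102453297-102470122) and Itgb3 (chr11:104608000-104670476) share a chromosome but lie 2137877 bases apart, and Gp1bb (chr16:18620317-18622403) and Gp5 (chr16:30307685-30310779) lie 11685281 bases apart. Gp9 (chr6:87778072-87779768) and Vwf (chr6:125546774-125686679) lie 37767005 bases apart. Selp (chr1:164115264-164150026) and Treml1 (chr17:48359916-48367176) stand alone on their chromosomes. The longest annotated Vwf transcript has 52 exons, and that of Pf4 has 3.

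RefSeq promoter sequences (GRCm38.p6, 250 bases before to 50 bases after the start) matched 8 of the 10 genes, with Vwf and Itgb3 unmatched. They were searched on both strands for AGATAA (read by GATA factors), CAGGAAG (ETS factors) and TGTGGT (RUNX factors), and no matches overlapped each other. The promoters of Selp and Pf4 are shown because both genes rose with age below, and that of Gp5 because it holds the same motif as Pf4; capitals mark AGATAA or its reverse complement TTATCT. Selp is at chr1:164115014-164115313 on the plus strand, Pf4 at chr5:90772185-90772484 on the plus strand and Gp5 at chr16:30310732-30311031 on the minus strand.
Selp: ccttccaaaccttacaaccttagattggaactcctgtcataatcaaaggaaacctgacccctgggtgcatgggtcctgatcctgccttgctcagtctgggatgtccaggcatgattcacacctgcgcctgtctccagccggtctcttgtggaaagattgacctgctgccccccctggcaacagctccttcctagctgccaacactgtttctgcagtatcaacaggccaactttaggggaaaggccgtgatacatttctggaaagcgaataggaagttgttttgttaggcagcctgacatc
Pf4: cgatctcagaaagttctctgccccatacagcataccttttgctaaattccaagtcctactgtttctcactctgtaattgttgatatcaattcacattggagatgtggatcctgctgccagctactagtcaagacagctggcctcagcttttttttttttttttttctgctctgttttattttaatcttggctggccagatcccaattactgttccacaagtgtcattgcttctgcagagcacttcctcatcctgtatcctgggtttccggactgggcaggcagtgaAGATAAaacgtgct
Gp5: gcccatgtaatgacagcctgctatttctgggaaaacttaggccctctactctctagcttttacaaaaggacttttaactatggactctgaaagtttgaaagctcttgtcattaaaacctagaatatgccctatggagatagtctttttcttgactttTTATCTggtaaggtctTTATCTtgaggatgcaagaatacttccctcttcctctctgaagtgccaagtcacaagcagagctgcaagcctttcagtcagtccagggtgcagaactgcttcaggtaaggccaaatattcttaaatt
AGATAA was found in 2 of the 8 promoters (Pf4 and Gp5, the latter with 2 matches), against 11.2% of all 32851 promoters of this length. TGTGGT was found in 1 (Gp9), against 16.8% of all promoters, and CAGGAAG in 0, against 13.3%. A match describes the letters of this window only.

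The classes differed widely in these genes, none of which was used to define them. The granulocyte, erythroid, Gata1 and Gata2, and Flt3 classes below were drawn after Hlf/Procr cells and cells with 4 or more gate genes were set aside. Hlf/Procr cells kept cells with 4 or more gate genes, so the other classes were cleared of them in advance. Pf4 lay between 3352 and 6254 CPM in megakaryocyte progenitors, between 142 and 582 CPM in Hlf/Procr cells and between 5.2 and 13.8 CPM in granulocyte progenitors (cells rich in Mpo, Elane and Prtn3 UMIs), which should lack the platelet programme and serve as the background. Treml1 lay between 99.7 and 139.7 CPM in megakaryocyte progenitors, between 6.04 and 12.5 CPM in Hlf/Procr cells and between 0 and 0.754 CPM in granulocyte progenitors. For every member the lowest megakaryocyte progenitor value exceeded the highest granulocyte value, and for 9 of the 10 it also exceeded the highest Hlf/Procr value. Selp was the exception, since its megakaryocyte progenitor levels (11.5 to 42.2 CPM) overlapped those of Hlf/Procr cells (3.92 to 28.3 CPM). Selp also reached 16.2 CPM in progenitors with Flt3 UMIs and 6.05 CPM in granulocyte progenitors. Gp5 stood apart in another way, with 18.2 to 32.5 CPM in erythroid progenitors, and it was higher there than in Hlf/Procr cells of the same mouse (9.77 to 19.7 CPM) in all 8 mice. Itga2b was at 119 to 173 CPM in precursors with Gata1 and Gata2 UMIs, which is above its 43.8 to 70.3 CPM in Hlf/Procr cells.

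The first question was whether cells with Hlf or Procr UMIs carry more platelet gene RNA in older mice. They did for 3 of the 10 genes. Selp, Vwf and Itgb3 rose, by log2 fold changes of 2.02 (SE 0.18), 1.78 (SE 0.25) and 1.29 (SE 0.19), with adjusted p of 0.00133, 0.008 and 0.00979 (edgeR quasi-likelihood test over all genes with age group and sex as terms, n = 4 older and 2 young mice). None of the 10 was called lower. Across all 13734 genes tested, 3.6% were called higher at an adjusted p under 0.05, the rule by which a gene is said to have risen here.

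Among the adhesion molecules, Vwf stood at 5.71 and 8.73 CPM in the young male and female, at 11.2 and 15.8 CPM in the middle-aged male and female, at 27.2 and 24.4 CPM in the old and at 28.6 and 17.1 CPM in the very old. The 4 older mice did not overlap the young mice, and the very old female was the lowest of them. Selp stood at 3.92 and 7.67 CPM in young mice (male, then female, as in all such series here), 17.1 and 20.6 CPM in middle-aged, 20.2 and 20.2 CPM in old and 21.8 and 28.3 CPM in very old mice. The middle-aged mice were already apart from the young mice. Itgb3, the beta chain of the fibrinogen receptor, stood at 4.89 and 5.22 CPM in young, 8.02 and 8.21 CPM in middle-aged, 14.9 and 10.7 CPM in old and 15.1 and 8.51 CPM in very old mice. The alpha chain Itga2b did not pass the test (log2 fold change 0.33, SE 0.12, adjusted p = 0.188). Its levels of 52.6 and 43.8 CPM in young mice overlapped those of 46.3 to 70.3 CPM in older mice.

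The subunits of the glycoprotein Ib-IX-V complex had smaller differences, and none was called. Gp9 lay at 11.8 and 10.6 CPM in young mice and between 13.3 and 20.4 CPM in older mice, without overlap, with a log2 fold change of 0.57 (adjusted p = 0.133). Gp1bb lay at 1.42 and 1.72 CPM in young and between 1.68 and 4.75 CPM in older mice (log2 fold change 0.95, SE 0.47, adjusted p = 0.304), and rested on only 30 to 143 UMIs per mouse. Gp5 lay at 13.7 and 13.1 CPM in young and between 11.5 and 19.7 CPM in older mice (log2 fold change 0.25, adjusted p = 0.551). Of the granule proteins, Pf4 lay at 257 and 251 CPM in young, 142 and 254 CPM in middle-aged, 241 and 440.3 CPM in old and 582 and 341 CPM in very old mice (log2 fold change 0.67, SE 0.28, adjusted p = 0.230). The older mice thus spanned the young values. Treml1 had a log2 fold change of 0.54 (adjusted p = 0.266) and Ppbp, with 14 to 75 UMIs per mouse, one of -0.09 (SE 0.45, adjusted p = 0.933).

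**Figure D1:**
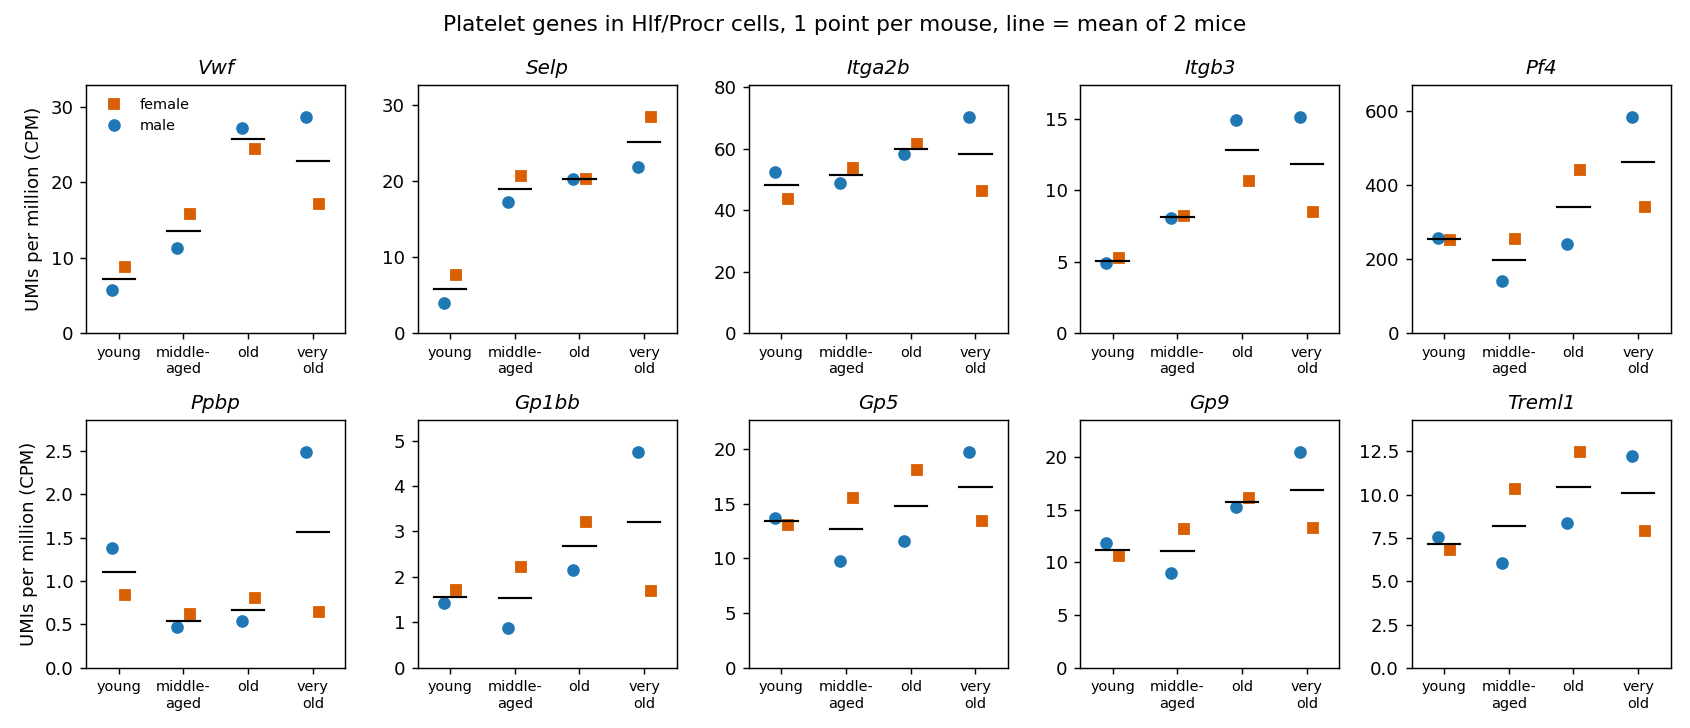
Level of each of the 10 genes in Hlf/Procr cells, in CPM ( linear axis from 0), for the 8 mice by age (male circles, female squares, line at the mean of each age). Vwf, Selp and Itgb3 are lowest in both young mice, whereas Pf4, Ppbp, Gp1bb, Gp5 and Itga2b overlap between young and older mice.

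In 5 of the 10 genes (Vwf, Selp, Itgb3, Gp9 and Treml1) every older mouse lay above both young mice in Hlf/Procr cells, against 12.4% of all genes with 10 or more UMIs. The median log2 fold change of the 10 genes was 0.62, against -0.01 for all genes tested. With the ages taken singly, the same 3 genes were called at both. In old mice Selp, Vwf and Itgb3 had log2 fold changes of 1.85, 1.85 and 1.33 (3.47% of all genes called higher), and in very old mice of 2.19, 1.72 and 1.25 (2.21% called higher). Pf4, Itga2b, Ppbp, Gp1bb, Gp5, Gp9 and Treml1 were not called at either age, with log2 fold changes from -0.70 to 0.77 in old mice (adjusted p from 0.224 to 0.807) and from 0.32 to 1.13 in very old mice (adjusted p from 0.15 to 0.634). Without the young male, where the remaining young mouse is assumed to vary like the other mice, only Selp stayed called, while Vwf had a log2 fold change of 1.43 (adjusted p = 0.147) and Itgb3 of 1.03 (adjusted p = 0.180). Without the very old female 6 genes were called, as Pf4, Gp9 and Gp1bb passed with adjusted p of 0.0399, 0.0492 and 0.0391. Calls over all genes moved as well, with 43 of 14089 genes higher without the young male and 407 of 14158 without the very old female, against 494 of 13734 with all mice.

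Some measures moved with this comparison. Of 15 listed genes of stem cells and early progenitors, 9 were called higher in Hlf/Procr cells of older mice, against 3.6% of all genes (Hoxb5, Esam and Pdzk1ip1 had the smallest adjusted p) and 1 lower, which was Flt3, known from multipotent progenitors. Hlf/Procr cells with UMIs of both Hlf and Procr made up 16.9% and 12.2% of the class in young mice and 17.3% to 32.4% in older mice. Within such cells Vwf was at 5.59 and 3.94 CPM in young, 21.8 and 26.0 CPM in middle-aged and 29.0 to 48.1 CPM in older mice, a log2 fold change of 3.12 between older and young (edgeR over all genes, adjusted p = 9.90e-06). Itgb3 had one of 2.52 there and Pf4 one of 0.98, with Pf4 at 46.7 and 40.6 CPM in young and 56.1 to 125 CPM in older mice. Of the 8 members tested in such cells, 4 were called higher (Selp, Pf4, Vwf and Itgb3), against 456 of 11474 genes. Of the listed markers of other cell types that were tested, 0 of 4 macrophage, 0 of 1 B cell, 1 of 3 T and NK cell (Klrb1c), 1 of 4 endothelial (Kdr) and 1 of 4 basophil and mast cell genes (Mcpt8) were called higher, against the same 3.6%. The summed level of the 4 macrophage genes was 16.7 to 22.4 CPM in young and 4.32 to 10.9 CPM in older mice, while the summed levels of the other lists overlapped (B cell genes 27.9 to 32.8 and 30.2 to 35.1 CPM, T and NK cell genes 233 to 299 and 249.8 to 297 CPM, endothelial genes 137 to 138 and 115 to 138 CPM, basophil and mast cell genes 96.0 to 184 and 119 to 152 CPM). The median UMI count of a Hlf/Procr cell was 12528 and 13698 in young and 9029 to 11293 in older mice, so that CPM and thinned shares are given rather than raw counts. The Hlf or Procr UMI was sought at full depth, so which cells enter the class still depends on depth. The part of each of these measures in the result was not tested.

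The middle-aged mice were compared with the young mice in the same fit. Selp rose by a log2 fold change of 1.75 (SE 0.20, adjusted p = 0.0191) and was the only 1 of the 10 genes called, against 0.226% of all genes called higher. Vwf and Itgb3 had log2 fold changes of 0.93 (adjusted p = 0.175) and 0.71 (adjusted p = 0.176), and neither was called. Pf4 had one of -0.37 (adjusted p = 0.603). The other 6 genes (Itga2b, Ppbp, Gp1bb, Gp5, Gp9 and Treml1) had adjusted p between 0.434 and 0.992. Without sex as a term, Selp was no longer called and the count was 0, with 3 of all 13734 genes called higher. The call of Selp was also lost without the young male or the middle-aged male, where 1 mouse is left in a group. Log2 fold changes for Selp were 1.43 to 2.20 whichever mouse was left out.

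Hlf/Procr cells include cells that also meet the megakaryocyte gate. Those with UMIs of 4 or more gate genes numbered 62 and 59 in young mice (3.62% and 3.61% of the class), 98 and 112 in middle-aged, 173 and 133 in old and 238 and 93 in very old mice (4.89% to 11.7% in older mice). Of the 10 gate genes tested, 5 were themselves called higher in older Hlf/Procr cells, against 3.6% of all genes (Cavin2, Clec1b, Mmrn1, Nrgn and Rab27b), so this number also moves with their levels. In the cells that stayed below the gate, Vwf was at 1.62 and 2.88 CPM in young, 8.13 and 7.16 CPM in middle-aged, 19.2 and 13.2 CPM in old and 14.6 and 8.47 CPM in very old mice. No older mouse overlapped a young mouse, and the log2 fold change of 2.61 exceeded that of the whole class (edgeR over all genes, adjusted p = 0.00216). Selp and Itgb3 were called there as well, with log2 fold changes of 1.96 and 1.61, so that 3 of the 10 genes were called higher, against 411 of 13612 genes. Pf4 was at 29.6 and 41.0 CPM in young and 22.3 to 93.8 CPM in older mice in these cells and was not called (log2 fold change 0.56, adjusted p = 0.330). These cells include those 1 gate gene short of the limit, which were 3.03% and 2.94% of the class in young and 5.73% to 15.2% in older mice. In the latter Vwf was at 1.996 and 46.3 CPM in young and 46.7 to 71.4 CPM in older mice, and Pf4 at 161 and 819.6 CPM in young and 66.5 to 627 CPM in older mice, with the highest older value in the old female. How much of the below-gate differences such cells carry was not tested. In Hlf/Procr cells with 4 or more gate genes, Vwf was at 78.6 and 131 CPM in young and 99.6 to 148 CPM in older mice, which overlapped, whereas Selp was at 11.2 and 19.2 CPM in young and 38.8 to 61.6 CPM in older mice, without overlap. No test was run on that small subset.

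**Figure D2:**
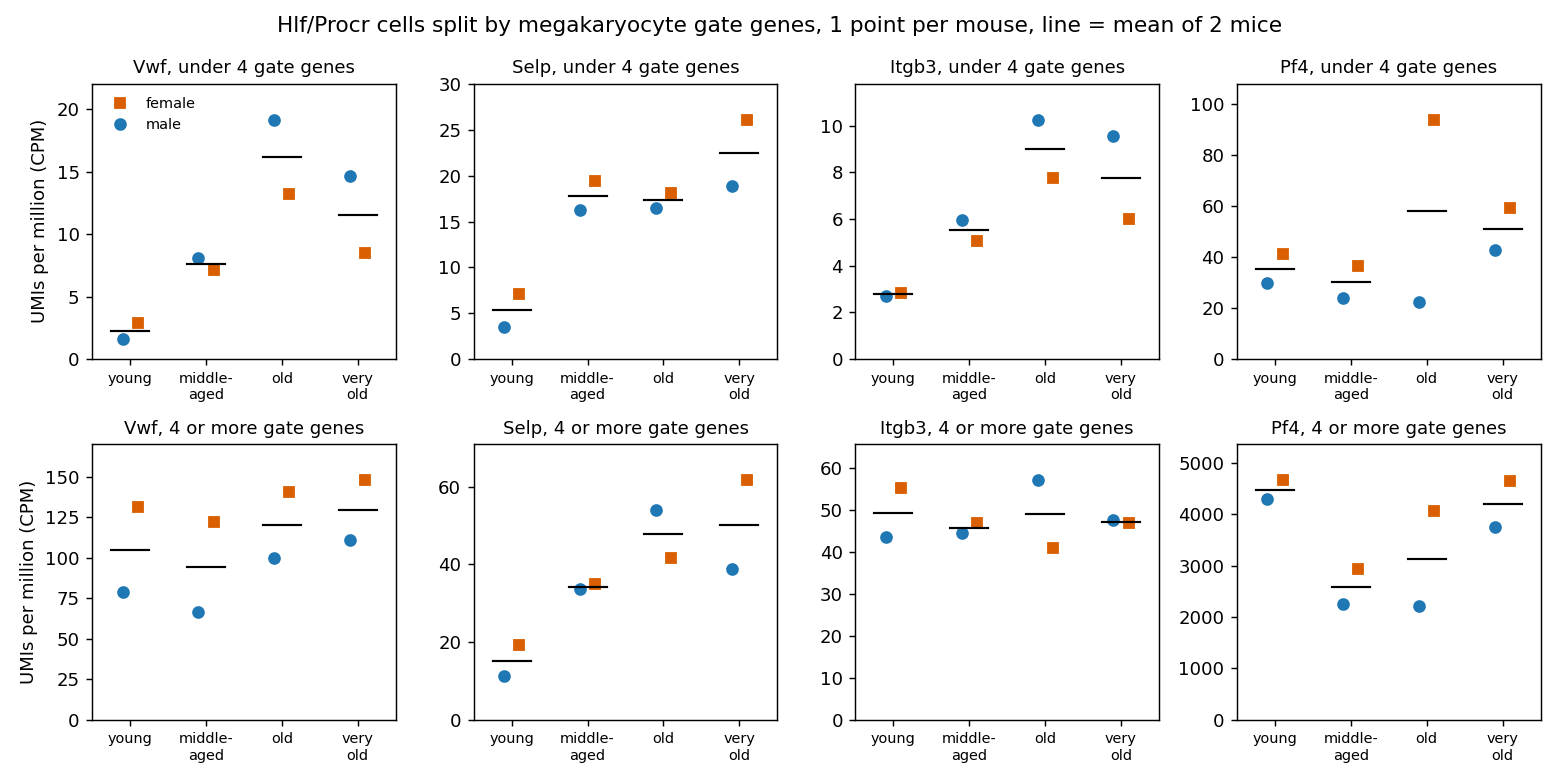
Levels of Vwf, Selp, Itgb3 and Pf4 in Hlf/Procr cells with UMIs of under 4 gate genes (top) and of 4 or more (bottom), in CPM ( linear axes from 0 that differ between panels), 1 point per mouse with the mean of each age as a line. Below the gate Vwf runs from 1.62 CPM in the young male to 19.2 CPM in the old male, while above it young and older mice overlap for Vwf, Itgb3 and Pf4 and not for Selp.

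Platelet priming was also counted cell by cell, after every cell was thinned at random to 4500 UMIs and shallower cells (6.92% to 17.2% of Hlf/Procr cells per mouse) were left out. Vwf UMIs were found in 1.81% and 2.43% of thinned Hlf/Procr cells in the young mice, in 4.81% and 5.3% in the middle-aged and in 6.3% to 10.9% in the older mice (unthinned, 3.73% to 5.75% in young and 10.0% to 19.5% in older mice). In thinned granulocyte progenitors, which had a median of 14892 to 24731.5 UMIs per cell before thinning (9029 to 15358 UMIs in Hlf/Procr cells), the share was at most 0.393%. It was 1.01% to 2.22% in thinned erythroid progenitors and 1.33% to 3.56% in precursors with Gata1 and Gata2 UMIs, ranges that include or come close to both young Hlf/Procr values and lie below all 4 older ones. Unthinned, erythroid progenitors had 5.75% to 11.8%. Unlike Hlf/Procr cells, these comparison classes hold no cell with 4 or more gate genes. Selp UMIs were in 1.6% and 4.14% of cells in young, 8.25% and 8.4% in middle-aged and 9.11% to 12.5% in older mice, with up to 2.79% in granulocyte progenitors. Pf4 UMIs were in 12.8% and 12.4% of cells in young, 9.73% and 14.2% in middle-aged and 11.8% to 18.7% in older mice, which overlapped, with 1.68% to 5.62% in granulocyte progenitors.

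A cell with UMIs of 3 or more of the 10 genes is called primed, whether or not it is a stem cell. The young male had 3.2% of such cells (95% Wilson interval 2.41% to 4.24%) and the young female 4.14% (3.25% to 5.26%). The middle-aged male had 4.12% (3.32% to 5.12%) and the middle-aged female 6.4% (5.28% to 7.73%). The old male and female had 6.29% (5.27% to 7.51%) and 8.35% (7.09% to 9.82%), and the very old male and female 9.41% (8.16% to 10.8%) and 6.53% (5.46% to 7.8%); these intervals cover counting error only. Every older mouse exceeded both young mice, with means of 7.65% ± 1.49 (SD, n = 4) and 3.67% ± 0.667 (SD, n = 2). The difference of 3.98 percentage points had an exact two-sided permutation p of 0.0667, the smallest that 4 against 2 mice allow, so this design cannot reach 0.05. In granulocyte progenitors 0 of 852 to 1758 thinned cells per mouse were primed, which allows a share of up to 0.352% in the mouse with the fewest cells. Cells with 4 or more gate genes had been left out of this class, but not out of Hlf/Procr cells, which lowers its share in advance. Precursors with Gata1 and Gata2 UMIs had 6.64% to 18.8%, and megakaryocyte progenitors 66.7% to 78.2%. Young and older mice overlapped in both classes and in erythroid progenitors. In progenitors with Flt3 UMIs 0 of 371 and 427 thinned cells were primed in young mice. In older mice the share there was 0.262% to 1.43%, on at most 6 primed cells per mouse. Over all thinned cells, Hlf/Procr cells included, the primed share was 3.77% and 3.95% in young and 5.2% to 7.998% in older mice. These differences between ages were not tested.

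**Figure D3:**
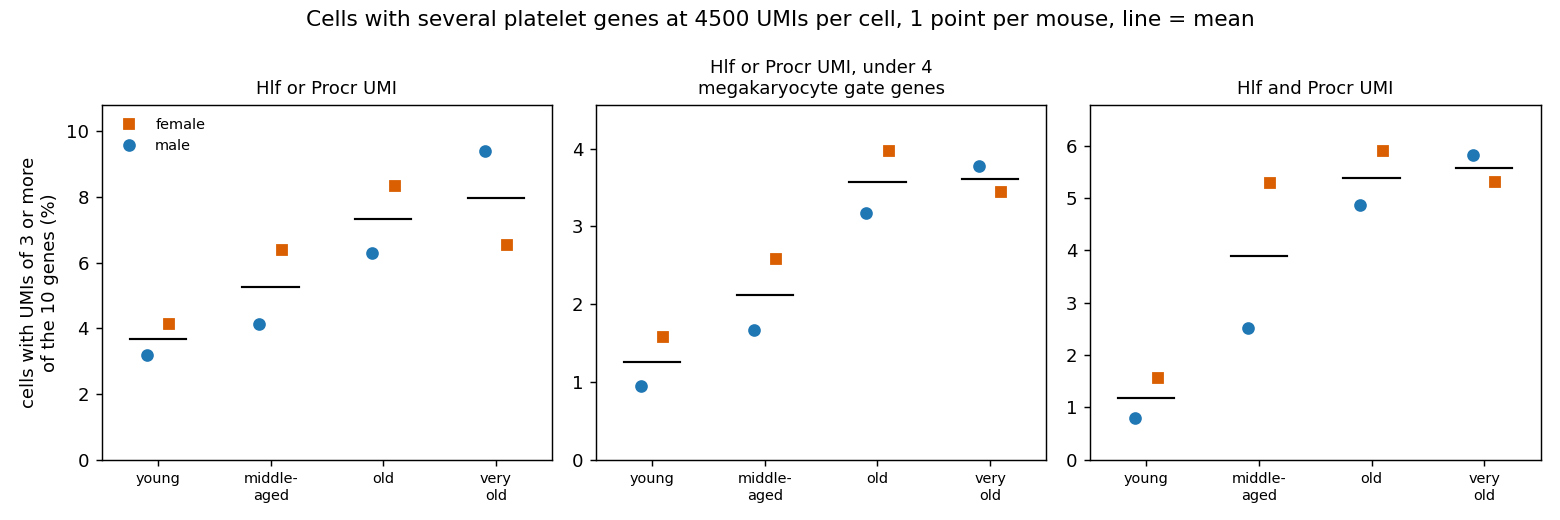
Share of thinned cells with UMIs of 3 or more of the 10 genes (percent, linear axes from 0 that differ between panels) in cells with Hlf or Procr UMIs, in those below the megakaryocyte gate and in those with UMIs of both genes, 1 point per mouse and a line at the mean of each age. All 4 older mice lie above both young mice in each panel, and in the first panel the 2 groups range from 6.29% to 9.41% and from 3.2% to 4.14%.

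Below the megakaryocyte gate the primed share was 0.944% and 1.57% in young mice and 3.17% to 3.97% in older mice. With UMIs of both Hlf and Procr required, it was 0.791% and 1.56% in young, 2.51% and 5.28% in middle-aged and 4.87% to 5.9% in older mice. Cells with UMIs of 2 or more of the 8 genes other than Vwf and Selp made up 8.62% and 7.17% of Hlf/Procr cells in young and 8.78% to 14.3% in older mice, which did not overlap. At full depth the primed share was 10.9% and 9.73% in young and 12.6% to 21.9% in older mice.

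The genes found together with Vwf in the same Hlf/Procr cell were counted in the thinned cells. Thinned cells with a Vwf UMI numbered 26 and 37 in young mice and 108 to 201 in older mice. In young mice 61.5% and 67.6% of them also held Pf4 UMIs and 38.5% and 29.7% Treml1 UMIs. In older mice these shares were 25.1% to 42.6% and 9.29% to 16.1%, below both young mice in every case. For Selp the shares were 0% and 16.2% in young and 22.9% to 30.6% in older mice, above both young mice. In cells without a Vwf UMI, Selp was found in 1.63% to 3.84% of cells in young and 7.63% to 11.3% in older mice. Every member other than Selp, Ppbp and Gp1bb was more frequent in cells with a Vwf UMI in all 8 mice. Below the megakaryocyte gate the young Vwf cells numbered only 10 and 16, and in older mice 25.6% to 36.2% of Vwf cells held Selp, against 6.93% to 10.9% of cells without a Vwf UMI. For Pf4 these shares were 11.5% to 17.4% and 8.71% to 13.9%, and for Treml1 0.82% to 3.2% and 1.25% to 1.94%, with both genes more frequent in Vwf cells in 3 of the 4 older mice. Below the gate Itga2b was the only member more frequent in Vwf cells in all 8 mice. These are shares of cells from 1 library per mouse and were not tested.

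The second question was whether megakaryocyte progenitors themselves carry different levels at different ages. Again 3 of the 10 genes rose and none was called lower, against 0.377% of 10349 genes called higher. Selp rose by a log2 fold change of 1.31 (SE 0.21, adjusted p = 0.0025), Vwf by 0.81 (SE 0.15, adjusted p = 0.00769) and Pf4 by 0.52 (SE 0.09, adjusted p = 0.00333) in edgeR's quasi-likelihood test over all genes (n = 4 older and 2 young mice).

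Vwf stood at 57.7 and 110.1 CPM in young, 106 and 123 CPM in middle-aged, 156 and 149.7 CPM in old and 139 and 135 CPM in very old mice. The young male was far below all other mice. Selp stood at 11.5 and 16.7 CPM in young, 32.2 and 25.0 CPM in middle-aged, 39.6 and 29.2 CPM in old and 32.4 and 42.2 CPM in very old mice, on 29 to 120 UMIs per mouse. Pf4 stood at 3352 and 5078 CPM in young, 3643 and 4213 CPM in middle-aged, 5014 and 6221 CPM in old and 6254 and 6097 CPM in very old mice. The young female exceeded the old male by a small margin, so Pf4 was called without the groups being apart. Itgb3, at 38.3 and 50.8 CPM in young and 56.2 to 66.0 CPM in older mice, was not called here (log2 fold change 0.42, SE 0.14, adjusted p = 0.309).

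The remaining genes had smaller or more variable differences, with adjusted p from 0.327 to 0.912. Itga2b lay at 417 and 386 CPM in young and 354 to 462 CPM in older mice (log2 fold change 0.06). Gp1bb lay at 19.8 and 32.2 CPM in young and 30.4 to 35.4 CPM in older mice (log2 fold change 0.33), Gp9 at 78.7 and 74.5 CPM in young and 89.0 to 101 CPM in older mice (0.31) and Gp5 at 133 and 118 CPM in young and 94.6 to 126 CPM in older mice (-0.17). Ppbp had a log2 fold change of 0.74 (SE 0.27) and ranged from 9.42 to 27.3 CPM within the very old mice alone. Treml1 had one of 0.31, with at most 99.99 CPM in young and 105 to 139.7 CPM in older mice. In 5 genes (Vwf, Selp, Itgb3, Gp9 and Treml1) all older mice lay above both young mice, against 8.67% of all genes with 10 or more UMIs in these cells.

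**Figure D4:**
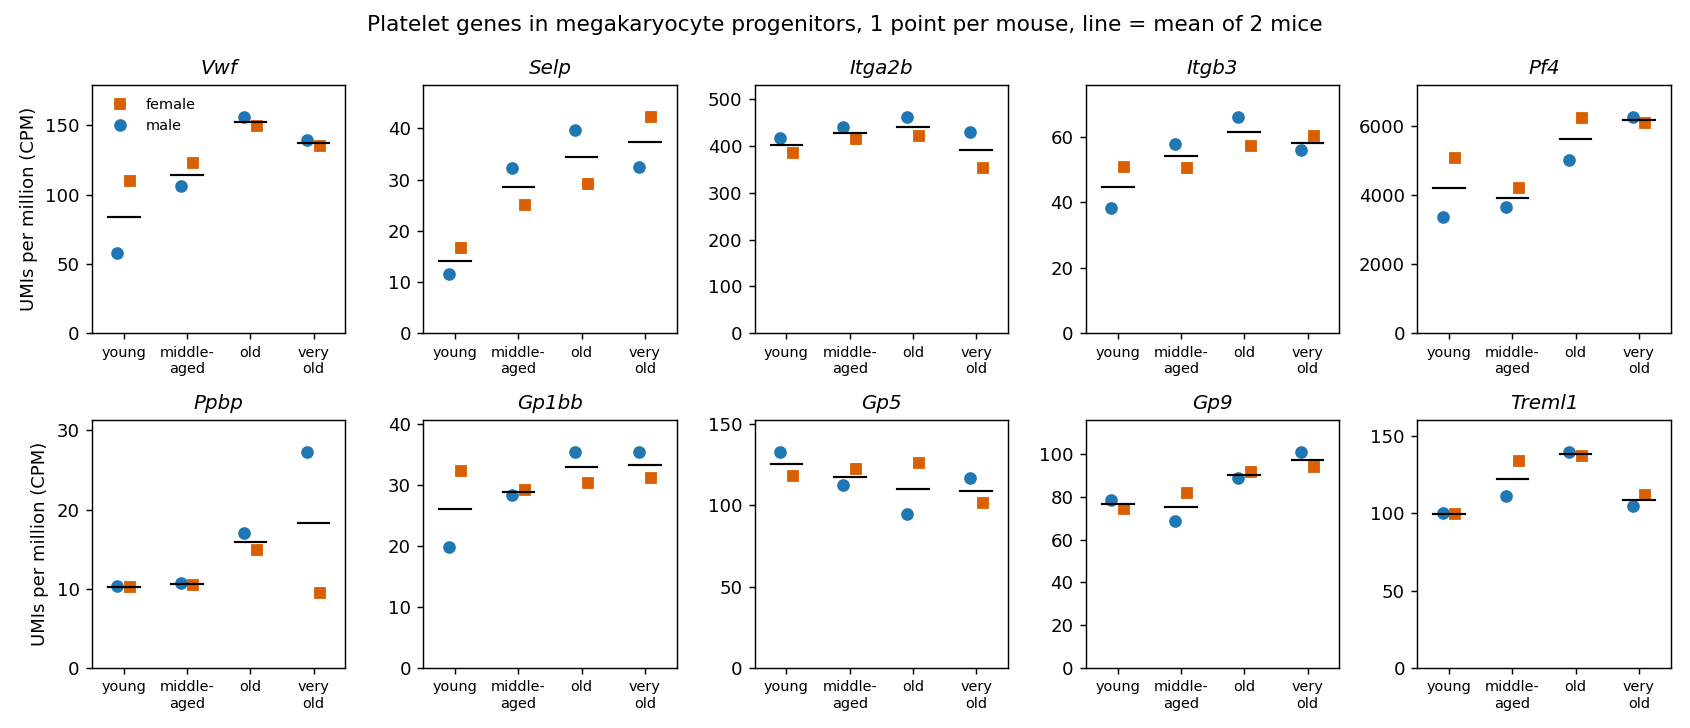
Level of each of the 10 genes in megakaryocyte progenitors, in CPM ( linear axis from 0), for the 8 mice by age (male circles, female squares, line at the mean of each age). Selp is lowest in both young mice, and the young male is lowest for Vwf (57.7 CPM) and Pf4 (3352 CPM). Pf4, Ppbp, Gp1bb, Gp5 and Itga2b overlap between young and older mice.

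The calls in megakaryocyte progenitors depended on several choices. Without the young male none of the 10 genes was called (edgeR, 5 at an unadjusted p under 0.05), with adjusted p of 0.233 for Selp, 0.620 for Pf4 and 0.850 for Vwf, and log2 fold changes of 1.05, 0.32 and 0.44, and 7 of all 10804 genes were called higher. DESeq2 did not call Vwf (adjusted p = 0.464), and without sex as a term only Selp was called. With 6 of 12 gate genes only Pf4 was called (Selp adjusted p = 0.589, Vwf adjusted p = 0.0579), and Pf4 lost its call with old mice only, with no condition on Hlf and Procr and with the gate set after thinning (adjusted p of 0.0607, 0.240 and 0.234). Of the 10 gate genes tested 3 were called higher in older mice (Clec1b, Mmrn1 and Nrgn), whose part in which cells pass the gate was not tested. The median UMI count of a megakaryocyte progenitor was 16007 and 14996 in young and 11973 to 14229.5 in older mice. Gate genes were counted at full depth, and the part of this difference in the result was not tested. The summed level of the 15 stem cell and early progenitor genes in these cells was 421 to 472 CPM in young and 522 to 639.8 CPM in older mice, and that of the basophil and mast cell genes 16.6 to 22.3 and 7.29 to 15.8 CPM, and their part in the result was not tested. Middle-aged against young, 0 of the 10 genes were called by edgeR or by DESeq2, with 3 and 1 at an unadjusted p under 0.05, and 0.0483% of all genes were called higher. Selp had a log2 fold change of 0.94 (adjusted p = 0.314), Vwf of 0.41, Itgb3 of 0.23 and Pf4 of -0.11, the last 3 with an adjusted p of 0.998. The log2 fold changes of Itga2b, Ppbp, Gp1bb, Gp5, Gp9 and Treml1 lay between -0.12 and 0.27, each with the same adjusted p.

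Megakaryocyte progenitors made up 2.19% and 2.38% of the kept cells in young mice, 2.35% and 3.27% in middle-aged, 2.33% and 3.15% in old and 3.38% and 2.33% in very old mice. The mean in older mice was 2.8% ± 0.547 (SD, n = 4) and in young mice 2.29% ± 0.134 (SD, n = 2), a difference of 0.511 percentage points with overlapping groups (exact two-sided permutation p = 0.267). The 95% Wilson interval of the lowest share, in the young male, was 1.88% to 2.56% and that of the highest, in the very old male, 2.98% to 3.84%. The overlap depended on the gate. Groups still overlapped with 6 of 12 gate genes (0.651% and 0.852% in young, 0.662% to 1.34% in older mice). They also overlapped with a gate of 2 Pf4 UMIs (3.93% and 4.48% in young, 3.40% to 6.81% in older mice). All 4 older mice exceeded both young mice with 3 of 12 gate genes (3.32% and 3.52% in young, 3.84% to 5.19% in older mice, exact permutation p = 0.133), with no condition on Hlf and Procr (3.07% and 3.06% against 3.40% to 6.91%, exact permutation p = 0.200) and with the gate set after thinning (1.36% and 1.16% against 1.48% to 2.70%, exact permutation p = 0.133).

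Summed over all kept cells, fewer cells of a type and less RNA per cell cannot be told apart. In these sums Selp and Itgb3 rose between older and young mice, with log2 fold changes of 1.88 (SE 0.15, adjusted p = 0.00417) and 0.92 (SE 0.13, adjusted p = 0.0247), and 1.11% of all genes were called higher. Vwf had one of 1.21 (adjusted p = 0.0765) and Pf4 one of 0.80 (adjusted p = 0.300), and those of Itga2b, Ppbp, Gp1bb, Gp5, Gp9 and Treml1 lay between 0.07 and 0.81 (adjusted p from 0.394 to 0.952). For these 4 genes every older mouse lay above both young mice, against 7.05% of all genes with 10 or more UMIs. Without the young male none of the 10 genes was called in edgeR (4 at an unadjusted p under 0.05), and without the very old female 5 were, Pf4, Vwf and Gp1bb in addition (2 of 15673 and 167 of 15717 genes called higher).

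**Figure D5:**
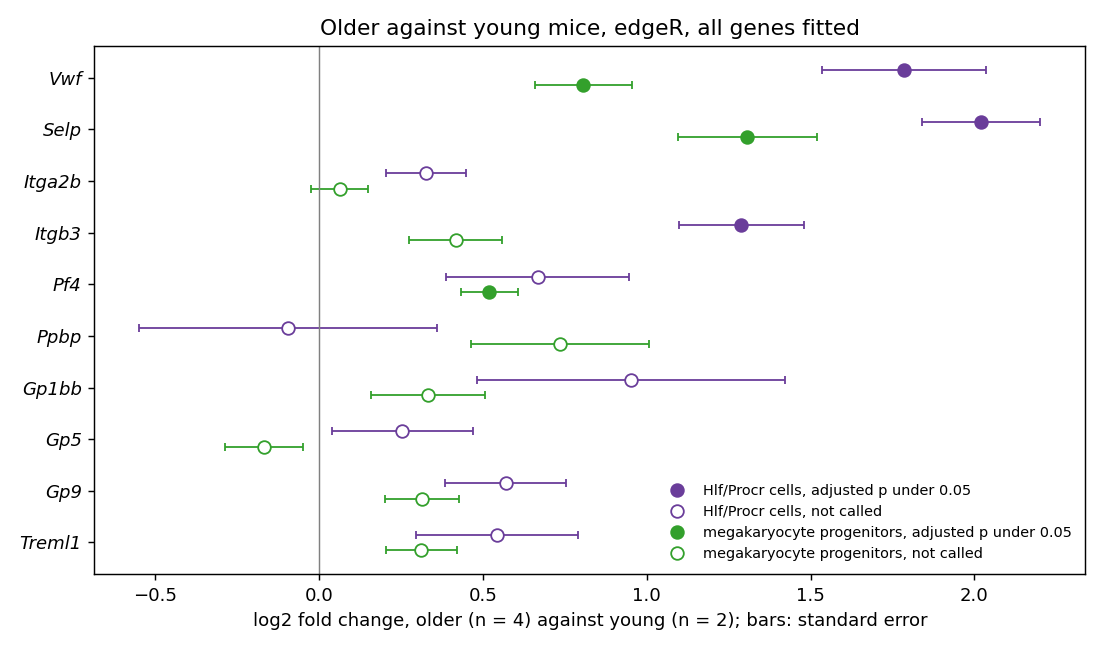
Log2 fold change of each gene between older (n = 4) and young (n = 2) mice in Hlf/Procr cells and in megakaryocyte progenitors, from edgeR fits over all genes, with bars of 1 standard error and filled points for an adjusted p under 0.05. Selp and Vwf are called in both classes, Itgb3 in Hlf/Procr cells and Pf4 in megakaryocyte progenitors, and for Vwf the points of the 2 classes are at 1.78 and 0.81.

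Whether a gene changed more in Hlf/Procr cells than in megakaryocyte progenitors was tested in 1 model over both classes with each mouse as a block, a test chosen after the values above were seen. Vwf differed, with a change that was 0.99 larger on the log2 scale in Hlf/Procr cells (SE 0.16, adjusted p = 0.000755), while 0.22% of 13163 genes had a larger change in Hlf/Procr cells. Itgb3 was near the threshold, at 0.88 (SE 0.21) with an adjusted p of 0.0553, or 0.0463 when library sizes were summed over all genes in place of the genes tested. Selp had a difference of 0.62 (adjusted p = 0.608) and Pf4 of 0.10 (adjusted p = 0.983). For Itga2b, Ppbp, Gp1bb, Gp5, Gp9 and Treml1 the differences ran from -0.82 (Ppbp) to 0.56 (Gp1bb), with adjusted p from 0.241 to 0.897. Without the young female the difference for Vwf was 0.77 and no longer called (adjusted p = 0.171).

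Other genes of the platelet programme were followed from lists by function, also chosen with earlier results of these data known. Their counts beside the share of all genes describe these lists and are no independent test. In older Hlf/Procr cells, where 3.6% of all genes were called higher, 7 of 17 receptors tested rose, among them Esam (junctional adhesion, log2 fold change 1.52), Itga6 (laminin receptor, 0.57) and Cd9 (tetraspanin, 0.73). Of 16 granule and secreted proteins, 4 rose, which were Mmrn1 (multimerin, 1.72), Clu (clusterin, 2.60), Rab27b (granule transport, 0.83) and Angpt1 (angiopoietin, 0.29). Of 21 signalling and cytoskeletal genes, 6 rose, led by Gng11 (1.45), Nrgn (0.72), Tbxas1 (thromboxane synthase, 0.70) and Cavin2 (1.63). On the transcription factor list of 17 genes, which also holds cofactors, 4 rose. Among them were Meis1 (0.38), Fli1 (0.43) and the LIM-domain protein gene Fhl1 (1.48), while Gata1 and Gata2 were not. None of these lists held a gene called lower. Their median log2 fold changes were 0.38, 0.25, 0.10 and 0.10 in the same order, against -0.01 for all genes tested. Esam and Meis1 are also on the stem cell list above.

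In megakaryocyte progenitors the same lists were read against 0.377% of all genes called higher, where Hlf/Procr cells had 3.6%, and the difference between the classes was not tested for these lists. Receptors had 2 of 15 higher (Clec1b and Tbxa2r), and granule and secreted proteins 3 of 16 higher (Mmrn1, Clu and Timp3) and 1 lower (Apoe). Signalling genes had 2 of 20 higher (Gng11 and Nrgn) and the transcription factor list 0 of 17. Clec1b, Mmrn1 and Nrgn are gate genes, so the cells were selected on their UMIs and their calls are a description only. Mmrn1 had a log2 fold change of 0.85 and Clu of 2.08 in these cells, and Gng11 of 0.79. The genes listed for mature megakaryocytes (Cd84, Mkrn1, Plek and Gp1ba) had 0 of 4 called in either class, with summed levels of 309 to 414 CPM in megakaryocyte progenitors. Gp1ba is a gate gene as well, and whether the list is specific to mature megakaryocytes was not tested. In the middle-aged against young comparison of Hlf/Procr cells, 0.226% of all genes were called higher. Beside this stood 1 of 17 receptors (Itga6), 1 of 16 granule and secreted proteins (Clu) and 1 of 21 signalling genes (Gng11). On the transcription factor list it was 0 of 17.

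The genes most like the 10 in pattern were sought over 48 points, 6 classes in 8 mice, among 9461 other genes that exceeded 10 CPM in at least 1 point. The measure was Pearson's r between log2(CPM + 1) of a gene and the mean standardised profile of the 10, given as a description because points from 1 mouse share a library. The closest were Gm43570 (r = 0.987), Rbpms2 (0.986), Rab27b (0.985), Cavin2 (0.983) and F2rl2 (0.982), followed by Gucy1a1, Pde10a, Cdc42ep5, Ehd3 and Myom1 (0.972 to 0.977). Rab27b, Cavin2 and F2rl2 are gate genes, which were used to define 1 of the 6 classes. Among the members themselves r with this profile, which includes them, was lowest for Selp (0.756) and Gp5 (0.810) and between 0.916 and 0.987 for the others. Median levels of Rbpms2, an RNA-binding protein gene, were 36.8 CPM in megakaryocyte progenitors and 0.53 CPM in granulocyte progenitors.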

How the data were processed

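Bone marrow cells of 8 mice, selected as negative for lineage markers and positive for c-Kit, were profiled with a 10x Genomics Chromium 3′ assay, and the authors deposited 1 matrix of UMI counts per mouse (counts per gene and cell, not normalised), made with Cell Ranger on mm10. The sources used here name different kit and Cell Ranger versions. Totals were 83062003 to 150135029 UMIs per library. Cells with under 200 detected genes (329 of 59465 barcodes) were left out, and doublets were not removed. Cells were gated, not clustered, by UMIs of genes outside the list. Counts were summed per mouse and class and tested with edgeR 4.0.16 (R 4.3.3; TMM, filterByExpr, quasi-likelihood, age group and sex as terms over all 8 mice, Benjamini-Hochberg over all genes tested, adjusted p under 0.05). Nothing in the labels says more of the mice than 1 library each, with 1 male and 1 female per age. The p-values thus measure a spread in which differences between mice and between libraries cannot be told apart. The main fit left 3 residual degrees of freedom. For shares of cells, an exact permutation test over mice was used, two-sided. The primed share was counted after thinning to 4500 UMIs, and the megakaryocyte progenitor share at full depth. DESeq2 1.42.0, other gates, filters and scalings, and leaving out each mouse were tried as alternatives, and the fits were tested on simulated data. The members, gene lists and gates were chosen with earlier results of these data known. All 10 members were named in every main fit of gene levels, those not called partly as ranges, with up to 4 called genes of each other list by adjusted p. Fits under other gates and filters name only some members. Some genes of these lists are not reported here.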

Additional observations from a re-analysis of the deposited data

Results flagged for a closer look

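In Hlf/Procr cells the very old male had 2.49 CPM of Ppbp, far from the other 3 older mice (0.539 to 0.803 CPM). In megakaryocyte progenitors the old male had 5014 CPM of Pf4, far below the other 3 older mice (6097 to 6254 CPM). Chance alone gives about 1 such case in 20 groups, and 32 groups were examined.

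The change of Vwf between older and young mice differed between Hlf/Procr cells and megakaryocyte progenitors by 0.99 on the log2 scale (edgeR with mouse as a block, adjusted p = 0.000755), and was larger in Hlf/Procr cells. This test was chosen after the values were seen, and without the young female the difference was 0.77 and no longer called. Gp1bb in megakaryocyte progenitors was higher in both older males than in the young male, by 15.6 CPM on average, and lower in both older females than in the young female, with a mean difference of -1.44 CPM. This difference between the sexes rested on 50 to 131 UMIs per mouse and on 1 young mouse of each sex. It was not tested and was 1 of 30 such checks.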

How the results depend on the processing

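In Hlf/Procr cells, 3 genes were called between older and young mice, 1 to 6 when 1 mouse was left out, and 5 both without cells holding granulocyte or Car1 UMIs (144 of all 11635 genes higher) and with the gate set after thinning (535 of 12698), against 494 of 13734 as reported. Middle-aged against young, 1 gene was called in these cells, 0 to 1 when 1 mouse was left out, 0 without a sex term (3 of all 13734 genes higher), and 2 with no filter (237 of 20661), with a Procr gate (80 of 11837), with a Hlf and Procr gate (52 of 11474) or without cells holding granulocyte or Car1 UMIs (25 of 11635), against 31 of 13734 as reported. In megakaryocyte progenitors, 3 were called between older and young mice, 0 to 4 when 1 mouse was left out and 1 either without a sex term (19 of all 10349 genes higher) or with 6 of 12 gate genes (3 of 8653), against 39 of 10349 as reported. Middle-aged against young, 0 were called there and 1 with no filter (5 of 10349 and 38 of 16666 genes higher). Over all cells, 2 were called, 0 to 5 when 1 mouse was left out, 1 without a sex term (31 of all 15361 genes higher, against 170 as reported), 1 with very old mice only (67) and 0 for a slope over age (0). Itgb3 over all cells lost its call under 9 of 17 alternatives, and its difference between classes gained one under 7 of 10. Selp in Hlf/Procr cells was called between older and young mice under all 23 alternatives, and Vwf and Itgb3 under 22 each. Replicate numbers name the sex and do not pair mice, so no replicate block beyond the sex term was fitted. The fit without the sex term called the 3 genes in Hlf/Procr cells (232 of all 13734 genes higher), 1 in megakaryocyte progenitors (19 of 10349) and 1 over all cells (31 of 15361).

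Directions turned for genes that were not called. Ppbp in Hlf/Procr cells (-0.09) was 0.52 with very old mice only, 0.24 as a slope per 52 weeks, 0.027 without cells holding granulocyte or Car1 UMIs and -0.70 to 0.24 when 1 mouse was left out, and Gp5 there was -0.00268 to 0.44. Pf4 in middle-aged against young Hlf/Procr cells was 0.19 with the Hlf and Procr gate, 0.31 without cells holding granulocyte or Car1 UMIs and 0.045 with the gate set after thinning. In megakaryocyte progenitors Itga2b was -0.00862 with very old mice only and -0.12 with no condition on Hlf and Procr, Gp5 was 0.049 with 6 of 12 gate genes and 0.041 with a gate of 2 Pf4 UMIs, and Pf4 in middle-aged against young mice was 0.10 and 0.15 under the same gates and -0.31 to 0.12 when 1 mouse was left out. The gate of 2 Pf4 UMIs selects cells on Pf4 itself, so the Pf4 value under that gate cannot show a turned direction. The difference between classes for Pf4 was -0.23 to 0.41 when 1 mouse was left out, in alternatives chosen after seeing the data. The primed share kept its direction under all 21 alternatives (1.75 to 8.34 percentage points) and the megakaryocyte progenitor share under all 14 (0.194 to 1.95), although under 3 other gates its groups no longer overlapped. The cause of these changes was not tested. With 2 young mice, each young value weighs heavily, and Ppbp and Gp1bb in Hlf/Procr cells rest on the fewest UMIs.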
